A study of Homo sapiens with 8 samples.

Results

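ATP-binding cassette (ABC) transporter genes were compared between HCT116 p53+/+ cells, an established human colon cancer line with wild-type p53, kept for 24 hours with 1 µM MANIO or with the solvent DMSO. MANIO is a compound known here by its code name, and the design text names the p53 response in transcripts as the question. Each group held 4 biological replicates, and all 8 were described with the same growth conditions. Members were the genes whose symbol is ABC, a subfamily letter from A to G and a number, which gave 46 of the 58302 genes in the deposited count table. Of these, 32 passed a filter on low counts, and 15712 genes passed in all.

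ABC proteins bind and hydrolyse ATP through a shared nucleotide-binding domain, and most couple it to a membrane channel that moves lipids, drugs, conjugates, peptides or metals. Members of the A and G subfamilies mainly move lipids and sterols, B and C include the multidrug exporters, and D sits in peroxisomes and lysosomes. The E and F proteins have no membrane part and act on ribosomes. In gut epithelium and in colon tumours the family is known for sterol handling and for exporting anticancer drugs.

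Total counts were 27945196 to 32509020 per library. Levels are in CPM, counts scaled to 1e6 per library. Of 11 intestinal epithelial markers, EPCAM, KRT8, KRT18, KRT19 and CDH1 were abundant, CDX2 had means of 15.7 CPM in DMSO and 18.3 CPM in MANIO, and KRT20 1.57 and 1.54 CPM. The other markers of that list, CDX1, VIL1, CDH17 and LGALS4, had means of 0.205 CPM or less. The summed level of the 11 was 3351 to 3623 CPM in DMSO and 4137 to 4638 CPM in MANIO, without overlap. The 5 leukocyte markers summed to at most 0.443 CPM in any library, while 7 fibroblast and endothelial markers summed to 22.4 to 27.6 CPM in DMSO and 39.9 to 47.9 CPM in MANIO, nearly all of it COL1A1. The 5 hepatocyte markers summed to 1.99 to 2.10 CPM in DMSO and 2.99 to 3.74 CPM in MANIO, nearly all of it SERPINA1. The part of these differences in the results was not tested. Genes with a count numbered 22691 to 22951 per library in DMSO and 23465 to 23859 in MANIO. Mitochondrial genes took 7.48% of counts in DMSO replicate 1, 4.82% to 5.21% in the other DMSO libraries and 6.70% to 7.62% in MANIO, and the part of these values in the results was not tested. DMSO replicate 1 and MANIO replicate 4 stood apart from their groups in the members' levels. In both, ABC members of high GC content lay lower than in the other libraries of the group and members of low GC content lay higher, with Spearman's rho over the 32 members of -0.706 and -0.866, against -0.242 to 0.593 in the other 6 libraries. These correlations are descriptions, since the members share each library. Counts are given with and without these libraries.

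More ABC genes rose than fell. Of the 32 tested members, 18 (56.2%) rose in MANIO, 3 (9.38%) fell and 11 did not pass the test. Over all 15712 genes tested, 54.6% were called, 27.8% higher and 26.8% lower, by edgeR's quasi-likelihood test at a Benjamini-Hochberg adjusted p under 0.05. The members' median log2 fold change, MANIO over DMSO, was 0.34, against 0.0043 for all genes tested. At least 2-fold rises were found for 6 members, ABCA12, ABCA1, ABCG4, ABCA4, ABCB9 and ABCA7, which is 18.8% of those tested, and 4.53% of all genes tested rose that much. The lowest member, ABCG2, stood at -0.45, short of a 2-fold fall, which 2.37% of all genes tested reached. With DMSO replicate 1 and MANIO replicate 4 both left out, 18 members rose and 4 fell, and without MANIO replicate 4 alone 5 fell. By subfamily, 7 of 8 tested members of A rose, 5 of 8 of C, 2 of 6 of B, 2 of 3 of D and 2 of 3 of G, and none of the 4 of E and F.

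**Figure D1:**
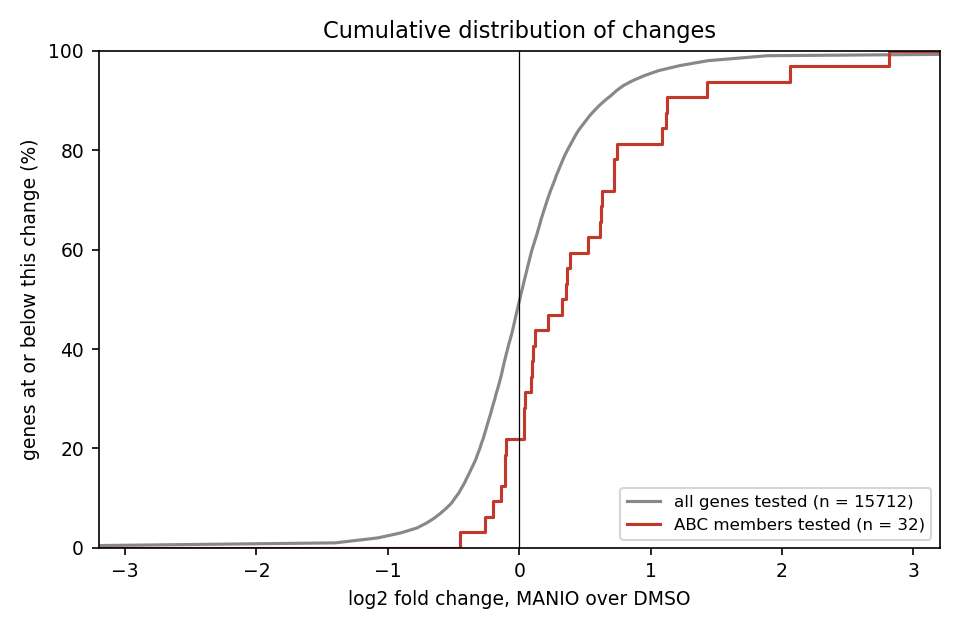
Cumulative share of genes (vertical axis, %) at or below each log2 fold change of MANIO over DMSO (horizontal axis), for the 32 tested ABC members and all 15712 genes tested. The members' curve lies to the right below 2.81, with a median of 0.34 against 0.0043.

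The groups did not overlap for 20 members, with MANIO the higher group in 17 and the lower in 3 (ABCG2, ABCB8 and ABCC4), where 24.7% and 23.7% of all genes tested were so separated. In bulk RNA, a change in the make-up of the cells and a change in RNA per cell cannot be told apart. The family as a whole took 0.156 ± 0.00519% of all counts in DMSO and 0.187 ± 0.00343% in MANIO (SD, n = 4 each), with ranges of 0.149% to 0.161% and 0.182% to 0.190% that did not overlap. Subfamily A took 0.0270 ± 0.00280% and then 0.0450 ± 0.00326%, and subfamily C 0.0441 ± 0.00102% and then 0.0546 ± 0.00113%, while subfamily F took 0.0375 ± 0.00246% and 0.0382 ± 0.00126%.

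**Figure D2:**
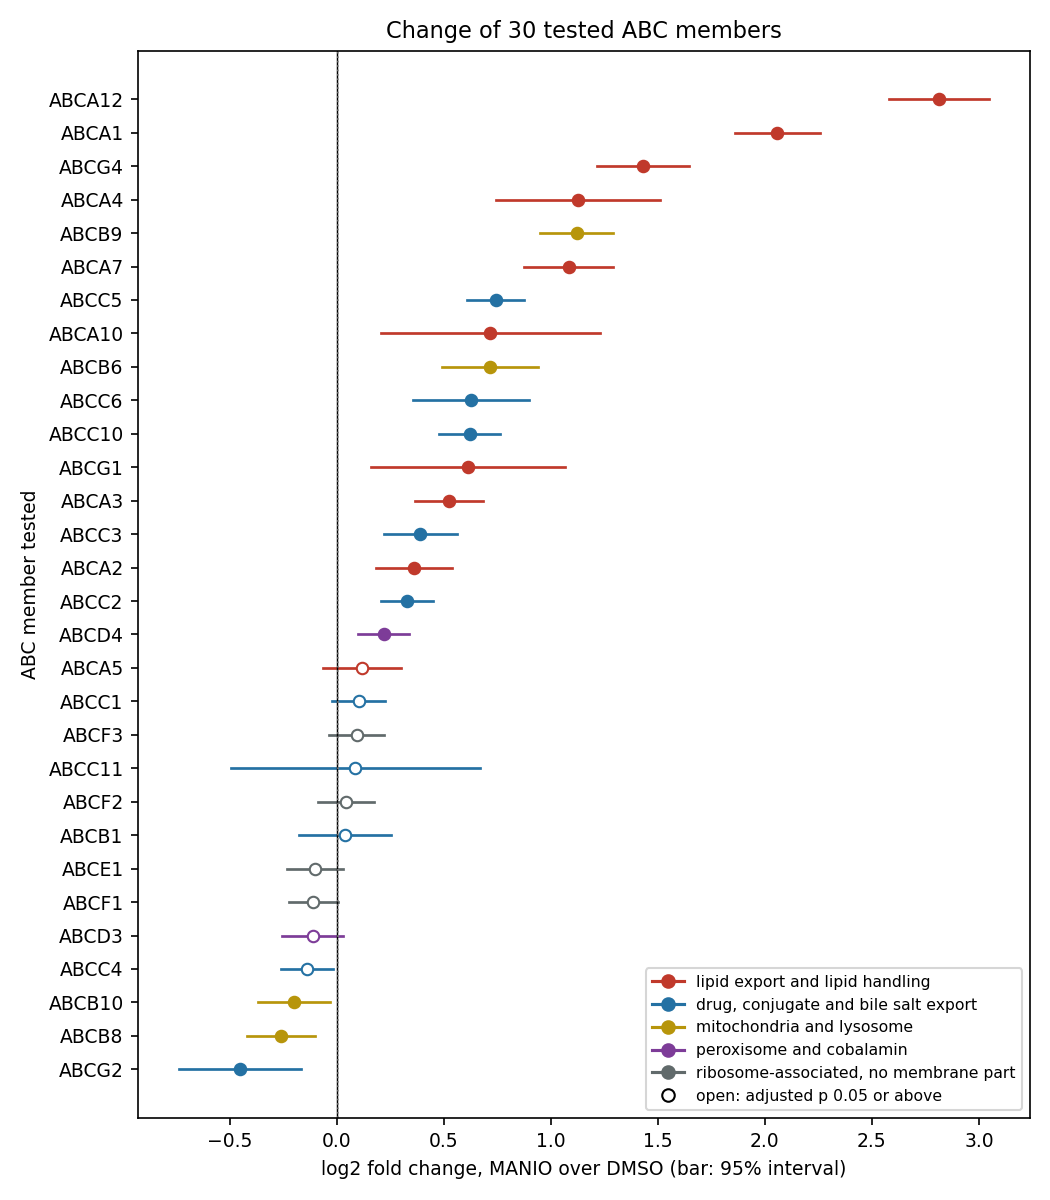
Log2 fold change of MANIO over DMSO for 30 of the 32 tested ABC members (points) with the 95% interval from edgeR's quasi-likelihood fit (bars), coloured by role. Filled points passed the test, and the dotted line is the median of all genes tested. Lipid transporters fill most of the top and the ribosome-associated members lie near 0.

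Lipid transporters rose most. Of 17 members assigned to lipid export and lipid handling, 10 were tested, 9 (90%) rose and 1, ABCA5, did not pass, where 27.8% of all genes tested rose. Their median log2 fold change was 0.90. ABCA12, which loads lipids into secretory granules and is best known from skin, had 3.05, 4.12, 3.25 and 2.59 CPM in DMSO replicates 1 to 4 and 22.7, 25.1, 21.2 and 22.7 CPM in MANIO replicates 1 to 4, the order used throughout. Every MANIO library thus exceeded the highest DMSO library severalfold. The rise was 7.03-fold (log2 fold change 2.81, SE 0.110, edgeR adjusted p = 5.2e-11). ABCA12 (ENSG00000144452) lies on chromosome 2 at 214931542 to 215138428 of GRCh38 and spans 207 kb.

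ABCA1, which hands cholesterol and phospholipid to apolipoprotein A-I, had 3.61, 3.81, 3.69 and 4.37 CPM in DMSO and 14.3, 17.3, 15.8 and 17.1 CPM in MANIO. The groups were far apart and the spread within each was small beside the difference. It rose 4.17-fold (2.06 on the log2 scale, SE 0.0935, edgeR adjusted p = 2.4e-10). ABCA1 (ENSG00000165029) lies on chromosome 9 at 104781002 to 104928237. ABCG4, a half-transporter that exports cholesterol, went from 3.91, 4.40, 4.90 and 4.55 CPM to 11.6, 11.1, 14.0 and 11.3 CPM, with MANIO replicate 3 the highest. Its rise was 2.69-fold (1.43, SE 0.101, edgeR adjusted p = 2.5e-08), and it lies on chromosome 11 at 119149012 to 119162653.

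ABCG1, the relative of ABCG4 that passes cholesterol to high-density lipoprotein, was far scarcer, at 0.558, 0.594, 0.732 and 0.746 CPM in DMSO and 1.204, 0.884, 0.791 and 1.18 CPM in MANIO. The groups did not overlap, but MANIO replicates 2 and 3 lay close to the highest DMSO libraries. The log2 fold change was 0.61 (95% interval 0.16 to 1.07, edgeR adjusted p = 0.0232). The call was lost when any of 4 libraries was left out: edgeR's adjusted p was 0.0608 without DMSO replicate 1, 0.0594 without DMSO replicate 2, 0.0728 without MANIO replicate 1 and 0.0629 without MANIO replicate 4. It was 0.0976 with DESeq2, and 0.125 by edgeR with DMSO replicate 1 and MANIO replicate 4 both left out.

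ABCA7, a phospholipid transporter of the ABCA1 type, was the member of this group whose counts rose most in absolute terms, with 60.9, 82.0, 80.5 and 82.0 CPM in DMSO and 163, 157, 183 and 144 CPM in MANIO. DMSO replicate 1 lay below the other DMSO libraries and MANIO replicate 4 below the other MANIO libraries, and the groups stayed well separated. It rose 2.12-fold (log2 fold change 1.08, SE 0.0962, edgeR adjusted p = 1.0e-06). ABCA4, known as the retinal lipid flippase, was scarce but separated, at 0.632, 0.664, 0.509 and 0.568 CPM in DMSO and 1.36, 1.25, 1.23 and 1.35 CPM in MANIO (1.13 on the log2 scale, edgeR adjusted p = 8.8e-05).

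ABCA10 was also scarce, at 0.744, 0.489, 0.764 and 0.391 CPM in DMSO and 0.855, 0.823, 1.08 and 1.21 CPM in MANIO, and the groups only just failed to overlap. The log2 fold change of ABCA10 was 0.72 (95% interval 0.21 to 1.23, edgeR adjusted p = 0.0196). edgeR's adjusted p became 0.0560 without DMSO replicate 2, 0.0662 without DMSO replicate 4 and 0.0558 without MANIO replicate 4, and DESeq2 gave 0.0629. ABCA3, the surfactant lipid transporter of lung lamellar bodies, rose by 0.53 on the log2 scale, and ABCA2, an endolysosomal sterol transporter, by 0.36. The lysosomal protein gene ABCA5 had a log2 fold change of 0.12 (95% interval -0.064 to 0.30) with overlapping groups.

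**Figure D3:**
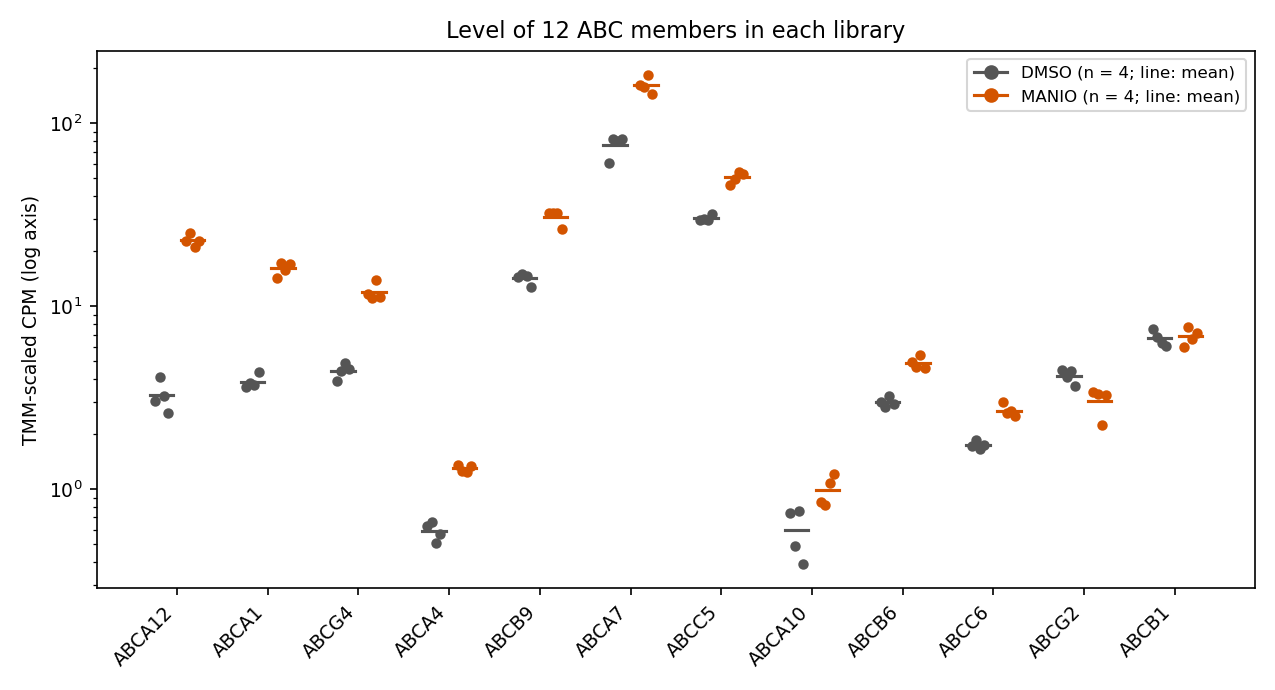
TMM-scaled CPM (log axis) of 12 ABC members in each of the 4 DMSO and 4 MANIO libraries (points, with the mean as a line). The first 10 members are the called members with the largest changes, and all are higher in every MANIO library. ABCG2 is lower in every MANIO library, and the groups of ABCB1 overlap.

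The promoters of the genes that rose most were searched for the p53 half-site, the short DNA motif that is bound in pairs by p53 tetramers, on both strands. RefSeq promoters of 300 bases (GRCh38.p14, 250 bases before to 50 after the start) were found for 26 of the 32 tested members. A half-site match lay in 6 of these 26 (23.1%) and in 6.54% of all 27305 promoters of that length. By call, it lay in 5 of 14 promoters of members that rose, in 1 of 9 that did not pass, and in none of the 3 that fell. Matches were not counted by call or by size of change over all genes tested, so such splits have no background here. A match is a match of letters and says nothing of binding. Of the 6 genes that rose at least 2-fold, 4 held a match, ABCB9 held none and ABCA4 had no promoter to search. ABCA6, which did not pass the filter on low counts, held 2 matches. The 6 promoters of tested members with a match are shown to the tenth base after the start. The half-site is in capitals and the rest in lower case, 5′ to 3′ on the gene's strand.
ABCA12 (log2 fold change 2.81; chr2:215138617-215138876, minus strand): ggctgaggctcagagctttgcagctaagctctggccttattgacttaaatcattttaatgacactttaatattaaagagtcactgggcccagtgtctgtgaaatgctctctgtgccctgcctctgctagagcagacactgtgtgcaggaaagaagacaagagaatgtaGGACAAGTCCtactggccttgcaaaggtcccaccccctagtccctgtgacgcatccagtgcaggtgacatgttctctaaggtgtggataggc
ABCA1 (log2 fold change 2.06; chr9:104928146-104928405, minus strand): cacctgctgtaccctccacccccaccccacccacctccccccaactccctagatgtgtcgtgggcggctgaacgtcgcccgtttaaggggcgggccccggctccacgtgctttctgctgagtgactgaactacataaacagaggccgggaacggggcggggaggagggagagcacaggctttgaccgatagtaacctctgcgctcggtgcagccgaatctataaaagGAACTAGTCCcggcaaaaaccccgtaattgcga
ABCG4 (log2 fold change 1.43; chr11:119148802-119149061, plus strand): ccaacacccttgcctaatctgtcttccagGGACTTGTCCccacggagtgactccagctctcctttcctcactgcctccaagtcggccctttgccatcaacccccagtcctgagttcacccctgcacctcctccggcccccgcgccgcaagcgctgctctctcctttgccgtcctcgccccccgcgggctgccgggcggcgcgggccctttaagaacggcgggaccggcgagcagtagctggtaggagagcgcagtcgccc
ABCA7 (log2 fold change 1.08; chr19:1039857-1040116, plus strand): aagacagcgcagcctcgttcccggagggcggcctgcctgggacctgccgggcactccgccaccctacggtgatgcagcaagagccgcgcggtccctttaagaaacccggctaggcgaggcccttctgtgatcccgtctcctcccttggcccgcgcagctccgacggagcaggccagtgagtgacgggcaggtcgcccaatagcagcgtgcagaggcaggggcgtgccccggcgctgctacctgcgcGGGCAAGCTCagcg
ABCC5 (log2 fold change 0.74; chr3:184017875-184018134, minus strand): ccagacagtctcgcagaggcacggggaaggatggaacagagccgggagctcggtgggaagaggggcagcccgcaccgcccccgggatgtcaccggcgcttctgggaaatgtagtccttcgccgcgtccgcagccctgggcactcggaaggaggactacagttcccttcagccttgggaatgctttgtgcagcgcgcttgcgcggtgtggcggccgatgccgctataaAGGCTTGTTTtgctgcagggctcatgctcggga
ABCC11 (log2 fold change 0.088, not called; chr16:48247530-48247789, minus strand): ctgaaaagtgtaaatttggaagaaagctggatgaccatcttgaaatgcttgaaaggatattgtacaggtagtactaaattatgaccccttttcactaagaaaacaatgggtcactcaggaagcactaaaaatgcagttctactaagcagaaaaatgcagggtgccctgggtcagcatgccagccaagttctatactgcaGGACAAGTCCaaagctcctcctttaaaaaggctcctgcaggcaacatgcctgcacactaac

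Other motifs were counted in the same promoters. The GC box GGGCGG lay in 16 of the 26 promoters (61.5%) and in 44.6% of all promoters, the E-box CACGTG in 3 (11.5%) and in 7.43%, and the CCAAT box CCAAT in 4 (15.4%) and in 35.7%. All were searched on both strands. The liver X receptor (LXR) element, here an exact direct repeat of AGGTCA with 4 bases between, lay in none of the 26 and in 0.0183% of all promoters. That is 5 of 27305 promoters, so a match among 26 was hardly possible. Repeats that depart from these letters were not searched for. The search therefore cannot tell whether these promoters, that of ABCA1 included, hold an LXR element. The TATA box TATAAA lay in the promoters of ABCA1, ABCA10, ABCC2 and ABCC5, 4 of the 26 (15.4%), and in 12% of all promoters, a share near theirs.

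Of 22 genes that control or receive exported sterol, 21 were found by symbol and 19 were tested. Of those tested, 5 (26.3%) rose, 6 (31.6%) fell and 8 did not pass, shares near the 27.8% and 26.8% of all genes tested. The median over the list was 0.0064 on the log2 scale. The 3 with the smallest p were LCAT, which esterifies cholesterol on lipoproteins (0.89), PPARG, a nuclear receptor of lipid metabolism (-0.66), and LIMA1, an actin-binding protein of intestinal cholesterol uptake (0.43). The following genes were named after their values were seen. Among genes of this list known as LXR targets, APOE, a lipid acceptor, rose by 1.16 on the log2 scale. APOE was scarce, with means of 0.552 CPM in DMSO and 1.25 CPM in MANIO. SREBF1, a regulator of lipid synthesis, fell by 0.43 and PLTP, the phospholipid transfer protein gene, fell by 0.31 with overlapping groups. MYLIP (-0.046), LPCAT3 (0.088) and SMPDL3A (0.15) did not pass. ABC members are outside the list, so ABCA1 (2.06) and ABCG1 (0.61), both called higher, are not counted here. NR1H3, the LXR-alpha gene, fell by 0.18. The other LXR gene of the list, NR1H2, was not found by symbol in the deposited counts, so its level is not known here. The other called genes of the list were SREBF2 (-0.39) and STARD4 (-0.41), both lower, and NPC2 (0.15) and RXRA (0.17), both higher.

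Of 13 exporters of drugs, conjugates and bile salts, 10 were tested: 5 (50%) rose, 1 (10%) fell and 4 did not pass, against 27.8% higher and 26.8% lower over all genes tested. The median was 0.22 on the log2 scale. The rises were those of ABCC5, ABCC6, ABCC10, ABCC3 and ABCC2, and the member that fell was ABCG2. ABCC5, an exporter of cyclic nucleotides and nucleotide analogues, had 29.6, 30.0, 29.8 and 31.8 CPM in DMSO and 46.1, 49.5, 54.4 and 52.9 CPM in MANIO, with a wide gap between groups. It rose 1.67-fold (0.74 on the log2 scale, SE 0.0632, edgeR adjusted p = 1.7e-07).

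ABCC2, the apical exporter of glucuronide and glutathione conjugates, had 147, 132, 127 and 138 CPM in DMSO and 173, 159, 173 and 176 CPM in MANIO. The groups were separate and the rise was small, 1.26-fold (edgeR adjusted p = 1.8e-04). ABCC3, its basolateral counterpart, had 42.6, 44.2, 43.8 and 49.1 CPM in DMSO and 62.4, 49.2, 65.3 and 58.5 CPM in MANIO, where MANIO replicate 2 nearly met the highest DMSO library. It rose 1.31-fold (edgeR adjusted p = 7.5e-04). ABCC10, another exporter of cytotoxic drugs, rose by 0.62 on the log2 scale.

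ABCC6, best known from the calcification disorder pseudoxanthoma elasticum, had 1.71, 1.85, 1.65 and 1.74 CPM in DMSO and 2.98, 2.59, 2.66 and 2.52 CPM in MANIO (0.63 on the log2 scale, edgeR adjusted p = 6.4e-04). Every MANIO library was above every DMSO library. Near-identical pseudogene copies make its count uncertain, and the copies ABCC6P1 and ABCC6P2 held 3 and 0 counts in the 4 DMSO libraries and 2 and 0 in the 4 MANIO libraries.

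None of the best-known multidrug exporters, ABCG2, ABCB1 and ABCC1, was called higher. ABCG2, the breast cancer resistance protein, had 4.50, 4.09, 4.42 and 3.66 CPM in DMSO and 3.39, 3.29, 2.25 and 3.26 CPM in MANIO. All MANIO libraries were lower, replicate 3 most of all, and the closest values of the groups were near each other. It fell 1.37-fold (log2 fold change -0.45, 95% interval -0.74 to -0.17, edgeR adjusted p = 0.0101). ABCG2 (ENSG00000118777) lies on chromosome 4 at 88090264 to 88231322.

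ABCB1, which encodes P-glycoprotein, had 7.48, 6.81, 6.33 and 6.07 CPM in DMSO and 5.96, 7.65, 6.65 and 7.13 CPM in MANIO, and the groups overlapped. The log2 fold change was 0.039 with a 95% interval of -0.18 to 0.25 (edgeR adjusted p = 0.769). ABCB1 (ENSG00000085563) lies on chromosome 7 at 87503633 to 87713323.

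ABCC1, the ubiquitous multidrug resistance protein 1, had 137, 147, 135 and 133 CPM in DMSO and 156, 156, 145 and 136 CPM in MANIO, with MANIO replicates 3 and 4 inside the DMSO range. Its log2 fold change was 0.10 (95% interval -0.021 to 0.23, edgeR adjusted p = 0.149), and edgeR called it higher without MANIO replicate 4 (adjusted p = 0.0383) and without both that library and DMSO replicate 1 (adjusted p = 0.0400). ABCC4, an exporter of cyclic nucleotides and prostaglandins, had 70.1, 63.2, 62.5 and 60.7 CPM in DMSO and 56.5, 60.2, 57.8 and 58.5 CPM in MANIO. All MANIO values lay just under all DMSO values, yet the log2 fold change of -0.14 did not pass (edgeR adjusted p = 0.0535). It passed in 4 alternatives: without DMSO replicate 4 (edgeR adjusted p = 0.0374), with RLE scaling (edgeR adjusted p = 0.0486), with upper-quartile scaling (edgeR adjusted p = 0.0332) and with DESeq2 (adjusted p = 0.0473). ABCC11, at 0.541 CPM or less in every library, had a log2 fold change of 0.088 (95% interval -0.50 to 0.67).

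Of 29 genes for drug uptake carriers, their partners and the receptors that induce exporters, 18 were tested, 1 (5.56%) rose, 8 (44.4%) fell and 9 did not pass, where 27.8% and 26.8% of all genes tested did so. The median over the list was -0.12 on the log2 scale. The carnitine carrier gene SLC22A5 rose by 0.39 on the log2 scale. The organic anion carrier gene SLCO3A1, with a span of 319 kb, fell by 1.28 on that scale. It was scarce, with means of 1.07 CPM in DMSO and 0.438 CPM in MANIO. GCLC, the catalytic subunit of glutathione synthesis, fell by 0.37.

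Of 5 members assigned to mitochondria and lysosomes, all of subfamily B and all tested, 2 rose, 2 fell and 1 did not pass, too few to set against the 27.8% higher and 26.8% lower of all genes tested. ABCB9, a lysosomal peptide transporter related to the antigen-processing transporter, had 14.4, 14.9, 14.7 and 12.7 CPM in DMSO and 32.4, 32.1, 32.2 and 26.5 CPM in MANIO. MANIO replicate 4 lay under the other MANIO libraries but far above the DMSO ones. ABCB9 rose 2.17-fold (1.12 on the log2 scale, SE 0.0792, edgeR adjusted p = 2.4e-08). Exons of genes on the opposite strand cover 24.5% of its exonic bases, and the strand was not marked in these libraries. The largest of these partners, OGFOD2, had 2.31 CPM in DMSO and 3.06 CPM in MANIO in the mean.

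ABCB6, a porphyrin transporter, had 3.01, 2.80, 3.21 and 2.91 CPM in DMSO and 4.97, 4.66, 5.44 and 4.58 CPM in MANIO. The groups were separate, and it rose by 0.72 on the log2 scale (edgeR adjusted p = 4.1e-05). Another annotated gene shares 54.7% of the exonic bases of ABCB6. That gene is absent from the deposited counts, so its reads were not counted apart, and the count of ABCB6 stays uncertain.

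The members of this group that fell were ABCB8 and ABCB10. ABCB8, an inner-membrane protein, fell by 0.26 on the log2 scale (95% interval -0.42 to -0.10, edgeR adjusted p = 0.00788). ABCB10, which works beside haem synthesis, fell by 0.20 with overlapping groups (edgeR adjusted p = 0.0453). That call was lost in 5 edgeR fits with 1 library left out, with adjusted p = 0.0802 without DMSO replicate 1, 0.121 without DMSO replicate 3, 0.0868 without DMSO replicate 4, 0.154 without MANIO replicate 1 and 0.125 without MANIO replicate 3.

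Of 28 genes for haem synthesis and iron-sulfur clusters, all tested, 6 (21.4%) rose, 8 (28.6%) fell and 14 did not pass, near the 27.8% and 26.8% of all genes tested. The list's median was -0.0028 on the log2 scale. The scaffold gene ISCU rose by 0.85 on the log2 scale, while the haem synthesis gene CPOX fell by 0.90 and the cluster assembly gene NUBP1 by 0.60, with 36.1% of the exonic bases of NUBP1 shared with another gene.

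Among the peroxisomal and cobalamin members, 3 of 4 were tested. ABCD4, which takes part in lysosomal release of cobalamin, rose by 0.22 on the log2 scale (edgeR adjusted p = 0.00413). ABCD3, the abundant peroxisomal membrane protein, had 98.02, 93.9, 88.9 and 93.0 CPM in DMSO and 82.8, 90.2, 76.8 and 96.1 CPM in MANIO. MANIO replicates 2 and 4 lay within the DMSO range and replicates 1 and 3 below it. The log2 fold change was -0.11 (95% interval -0.25 to 0.03). edgeR called it lower without MANIO replicate 4 (adjusted p = 0.0339) and without both that library and DMSO replicate 1 (adjusted p = 0.0497). Of 29 listed genes of peroxisomes and cobalamin handling, 28 were tested, 9 (32.1%) rose, 7 (25.0%) fell and 12 did not pass, near the 27.8% and 26.8% of all genes tested. The beta-oxidation gene HSD17B4 fell by 0.58 on the log2 scale, the peroxin gene PEX26 rose by 0.53 and TCN2, the gene of the cobalamin carrier transcobalamin, by 0.74.

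The ribosome-associated members did not pass. By edgeR's quasi-likelihood test 0 of 4 were called and 0 had an unadjusted p under 0.05, and DESeq2 also called 0, with 1 at an unadjusted p under 0.05. ABCE1, which splits ribosomes after termination, had 184, 165, 174 and 168 CPM in DMSO and 150.4, 165, 152 and 178 CPM in MANIO. MANIO replicates 1 and 3 lay well below every DMSO library, replicate 2 near the lowest of them and replicate 4 within their range. Its log2 fold change was -0.10 (95% interval -0.23 to 0.03), and edgeR called it lower without MANIO replicate 4 (adjusted p = 0.0367).

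ABCF1, which interacts with the initiation factor eIF2, had 155, 174, 163 and 155 CPM in DMSO and 153, 155, 149 and 142 CPM in MANIO. The groups overlapped slightly and the log2 fold change was -0.11 (95% interval -0.22 to 0.0071). ABCF2 had a log2 fold change of 0.043 (95% interval -0.088 to 0.17), and ABCF3 one of 0.094 (95% interval -0.034 to 0.22). Another gene, absent from the deposited counts, shares 45.8% of the exonic bases of ABCF2. Of 18 genes of ribosome recycling and of the kinase GCN2, all tested, 3 (16.7%) rose, 4 (22.2%) fell and 11 did not pass, both shares under the 27.8% and 26.8% of all genes tested. The ubiquitin ligase gene of stalled ribosomes, LTN1, rose by 0.44 on the log2 scale, the rescue factor gene HBS1L fell by 0.34 and the initiation factor gene EIF2S2 by 0.25.

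Per length, 3 of the 4 ribosome-associated genes had the highest levels of the family. Levels are given as reads per kb of merged exon per 1e6 counts (RPKM). In DMSO the highest were ABCF1 (35.7 ± 1.98), ABCF2 (35.1 ± 2.92) and ABCE1 (27.6 ± 1.31; SD, n = 4), followed by ABCC1 (18.2 ± 0.819) and ABCC2 (17.3 ± 1.10). ABCF1 and ABCF2 differed by less than their spread. The fourth, ABCF3, was at rank 6 in DMSO (13.8 ± 0.924) and rank 8 in MANIO (14.7 ± 0.746). ABCA7 went from rank 10 of 32 (9.12 ± 1.23 RPKM) to rank 6 (19.3 ± 1.95), and ABCA12 from rank 26 (0.345 ± 0.0681) to rank 20 (2.43 ± 0.172). ABCG2 went from rank 23 (0.826 ± 0.0761) to rank 27 (0.604 ± 0.106). Even after its rise, ABCA1 was at 1.42 ± 0.121 RPKM, while P-glycoprotein's gene ABCB1 was at 1.18 ± 0.124.

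**Figure D4:**
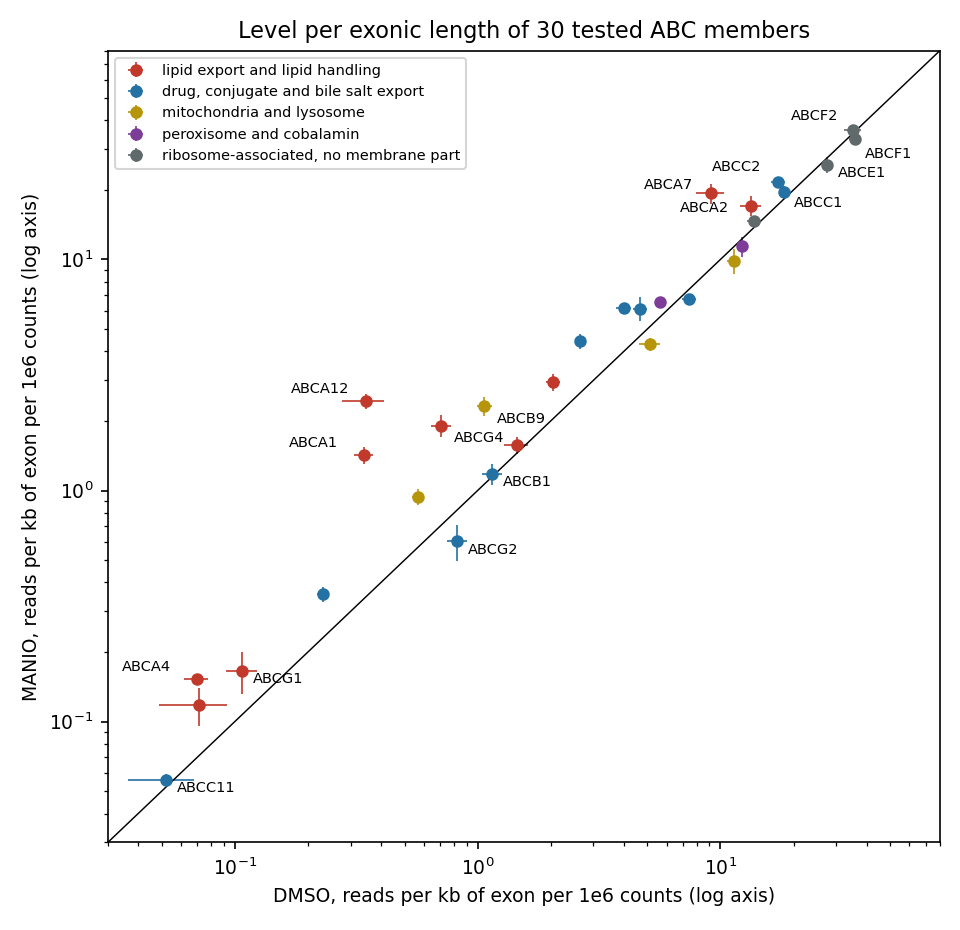
Mean RPKM of 30 of the 32 tested ABC members in DMSO (horizontal, log axis) and MANIO (vertical, log axis), with SD bars over 4 libraries, coloured by role. Points on the line are equal in both groups. ABCA12, ABCA1, ABCG4, ABCB9 and ABCA7 lie above it, while the members with the highest levels, ABCF1, ABCF2 and ABCE1, lie on or near it.

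Several members are neighbours in the genome. ABCC1 and ABCC6 lie 5.85 kb apart on chromosome 16, at log2 fold changes of 0.10 and 0.63, and their 95% intervals did not overlap. ABCB1 lies 23.2 kb from ABCB4, which had 2 counts in DMSO and 3 in MANIO over 4 libraries each. On chromosome 17, ABCA8, ABCA9, ABCA6, ABCA10 and ABCA5 follow each other. Of these 5 genes, ABCA5 and ABCA10, whose spans overlap, were tested and had log2 fold changes of 0.12 and 0.72. ABCC12 and ABCC11 lie 10.9 kb apart on chromosome 16, and ABCG5 and ABCG8 overlap on chromosome 2.

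The 14 members that did not pass the filter were at or near the floor. Of these, 6 had no count in any library: ABCA13, the bile salt export pump gene ABCB11, the pseudogene ABCC13, the potassium channel regulator gene ABCC9, and ABCG5 and ABCG8, which together form the intestinal sterol exporter. A count of 0 allows a level of up to 0.0915 to 0.112 CPM, taking 3 counts as the limit, for counting error only. The others, ABCA6, ABCA8, ABCA9, ABCB4, ABCB5, ABCC8, ABCC12 and ABCD2, had at most 8 counts in a library. ABCC8, the sulfonylurea receptor gene, had 1 count over the 4 DMSO libraries and 13 over the 4 MANIO libraries, and was called higher by DESeq2 and by edgeR with no filter on low counts. Of the 32 tested members, 31 reached the filter's level in all 4 DMSO libraries and 32 in all 4 MANIO libraries, ABCC11 being the exception.

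Members of the family with other symbols are not covered by the symbol rule. TAP1 and TAP2, which together carry peptides into the ER for antigen presentation, both rose, TAP1 from 61.3 ± 3.44 to 108 ± 11.5 CPM (0.82 on the log2 scale) and TAP2 from 31.7 ± 0.515 to 45.8 ± 1.91 CPM (0.53; SD, n = 4). Another gene shares 32.3% of the exonic bases of TAP2. CFTR, the chloride channel gene, did not pass the filter. The list of channel pores and peptide-loading partners had 2 of 4 genes tested: KCNJ11, the pore partner of ABCC8, rose by 0.34 on the log2 scale (edgeR adjusted p = 0.0189, and 0.0613 without DMSO replicate 2 and 0.0637 without MANIO replicate 3), and TAPBP did not pass (-0.044).

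The members that rose were richer in GC than the rest. Their transcripts had a median GC content of 56.1% (18 members), against 43.6% for the 3 that fell and 44.1% for the 11 that did not pass. Spearman's rho between log2 fold change and GC content was 0.315 over the 32 members and 0.161 over 15667 tested genes with a value. ABCA12 (42.5% GC) and ABCA1 (46.6%) rose most and are not GC-rich, whereas ABCA7 has 64.2%, ABCB9 60.5% and ABCG4 57.6%. With gene span the rho was -0.0139 over the members, whose median span is 67.4 kb, and -0.153 over all genes, whose median is 26.8 kb. With merged exonic length it was 0.454 over the members and 5.3e-04 over all genes. These are correlations across genes, which share the 8 libraries, and the part of GC content, length and depth in the fold changes was not tested.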

How the data were processed

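RNA was measured in 8 libraries, 4 per group, grouped by their titles. Per the labels' protocols, total RNA went into Illumina TruSeq version 2 libraries, a kit that does not mark strand. The authors deposited raw read counts per Ensembl gene. Tools listed in the submitters' processing notes, without roles, are STAR 2.5.3a, HTSeq, DESeq2 and FastQC 1.3, and the build is GRCh38. The sources used here do not give the annotation, strand setting or handling of reads with several matches. No other column of values was present.

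From the counts, genes were filtered with filterByExpr (a level equal to 10 counts in the median library, in 4 libraries), scaled by TMM and tested with edgeR 4.0.16 in R 4.3.3 (robust quasi-likelihood F test, group alone, Benjamini-Hochberg adjustment over all genes tested, called at an adjusted p under 0.05). DESeq2 1.42.0, other scalings, no filter, no robust estimation, a 1.2-fold limit (glmTreat), a replicate block and each library left out were alternatives. Leaving out DMSO replicate 1 and MANIO replicate 4 together was added after seeing the data. Levels are TMM-scaled CPM, SE comes from the F statistic, and 95% intervals use its degrees of freedom. Positions, spans, exonic lengths and transcript GC come from GENCODE 29 (GRCh38), and promoters from RefSeq (GRCh38.p14).

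Counts were also simulated for 4 libraries per group with few genes changed (15301 genes tested). Recovery was 22% for genes set to a 1.2-fold change, 74% for 1.5-fold, 88% for 2-fold and 98% for 4-fold. Of 151 calls, 10 were false. The data held 8574 calls, so the adjustment was stricter in the simulation, and these recoveries do not describe the real comparison. No pair of libraries in a group agreed within sampling noise, with chi-square values per degree of freedom from 3.60 to 24.4.

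The members and gene lists were chosen with earlier results of these data known. Of the tested members, 2 are counted but not reported here. Values per library are given for members picked by role and for the 10 called members with the largest change. From each list, the 3 genes with the smallest p are named.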

Additional observations from a re-analysis of the deposited data

Results flagged for a closer look

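Of 102 groups of 4 libraries examined for 51 genes, 8 held 1 library far from the other 3 by Dixon's gap-to-range ratio at its 95% limit, and chance flags about 1 in 20 groups. ABCA7 was at 60.9 CPM in DMSO replicate 1, against 80.5 to 82.0 in the other DMSO libraries, and ABCC10 at 28.8 CPM there, against 33.4 to 33.5. ABCB9 was at 26.5 CPM in MANIO replicate 4, against 32.1 to 32.4 in the other MANIO libraries. These 3 members have a GC content of 64.2%, 58.7% and 60.5%, and the libraries are those in which members of high GC content lay low.

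ABCC2 was at 159 CPM in MANIO replicate 2, against 173 to 176 in the other MANIO libraries. ABCC5 was at 31.8 CPM in DMSO replicate 4, against 29.6 to 30.0. In MANIO replicate 3, ABCG2 was at 2.25 CPM, against 3.26 to 3.39, and ABCG4 at 14.0 CPM, against 11.1 to 11.6. LIMA1, of the sterol list, was at 204 CPM in DMSO replicate 1, against 184 to 186.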

How the results depend on the processing

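Against a 1.2-fold limit (glmTreat), 11 members were called higher, 0 lower (1 at an unadjusted p under 0.05, where DESeq2 without a limit called 4) and 4132 genes in all, against 18, 3 and 8574 without one. Over all genes tested, 14.7% were called higher and 11.6% lower against that limit. The 11 were ABCA1, ABCA12, ABCA3, ABCA4, ABCA7, ABCB6, ABCB9, ABCC10, ABCC5, ABCC6 and ABCG4, which were called higher under every alternative run. With 1 library left out, 16 to 18 members rose, 2 to 5 fell (5 without MANIO replicate 4, where ABCD3 and ABCE1 were added) and 7818 to 8622 genes were called. With DMSO replicate 1 and MANIO replicate 4 both left out, the counts were 18, 4 and 8661. Other scalings, no filter, DESeq2 and no robust estimation gave 17 to 19 members higher, 3 or 4 lower and 8249 to 9241 genes.

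Signs turned for 3 members that did not pass: ABCB1 without DMSO replicate 4 (-0.0065) and without MANIO replicate 2 (-0.019), ABCC11 without DMSO replicate 4 (-0.029) and ABCF2 without DMSO replicate 4 (-0.014). With 1 library left out they ranged from -0.019 to 0.10, -0.029 to 0.32 and -0.014 to 0.083. The cause was not tested. Of 512 member values under alternatives, 473 kept direction and call, 26 lost the call, 9 gained it and 4 changed sign.

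With a replicate block, 18 members rose, 3 fell and 8845 genes were called. Same-numbered libraries correlated by 0.0385 to 0.163 in their deviations from the group means. DMSO replicates 1, 2 and 4 each correlated best with another number (0.189, 0.25 and 0.290), and the numbers were not taken as pairs. The depth limits scarce members such as ABCC11, ABCA10 and ABCG1, whose 95% intervals are the widest of those tested.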

Other observations

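Of the 15 genes in the table whose symbols begin with ABC but fall outside the symbol rule (pseudogenes and antisense RNAs), only the pseudogene ABCA11P passed the filter on low counts. It had 0.893, 1.01, 1.02 and 0.817 CPM in DMSO replicates 1 to 4 and 1.204, 1.59, 1.33 and 1.55 CPM in MANIO replicates 1 to 4, so the groups did not overlap. Its log2 fold change was 0.59 (95% interval 0.23 to 0.96, edgeR adjusted p = 0.00858). The gene ZNF721 shares 59.0% of its exonic bases, which makes its count uncertain.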
